A study of Mus musculus with 4 samples.

Results

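The invariant chain gene Cd74 and 8 partner genes were followed in 4T1 cells, a mouse mammary carcinoma line of wild-type genotype. The partners serve MHC class II antigen presentation, apart from Mif, which encodes a ligand of invariant chain at the cell surface. The cells had received recombinant IL-17A (the rIL17 libraries) or phosphate-buffered saline (the PBS libraries), with 2 libraries per group and 4 in all. All cultures were kept in RPMI medium with fetal bovine serum, penicillin and streptomycin; dose and duration are not given in the labels. The labels are also silent on whether replicate libraries are separate cultures, so p-values reflect the variation among 4 libraries and that variation may be technical. The 9 genes were Cd74, Ciita, H2-DMa, H2-DMb1, H2-Aa, H2-Ab1, H2-Eb1, Ctss and Mif. They were taken by symbol from a table of 21840 genes, and 5 of the 9 had a row: Mif, Cd74, H2-DMa, Ciita and H2-Aa. H2-DMb1, H2-Ab1, H2-Eb1 and Ctss were not analysed here. The table held 0 genes at 0 in all 4 libraries, so a gene with no row is not read as a gene at 0.

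The group was chosen by the values of Cd74 in these same data, which were lower with IL-17A than with PBS. The comparison of rIL17 with PBS is therefore a description for the members, and no p-value is given for them. Values are normalized counts, that is, reads per gene that the authors had divided by 1 factor per library. Within a library every value was a whole multiple, within 0.01, of 1 step that was 0.981 to 1.01 in size, so 1 normalized count is close to 1 read and 3 reads are close to 3 normalized counts. Log2 differences are rIL17 minus PBS on the scale log2(normalized count + 1), which understates the change of low genes.

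MHC class II molecules carry peptides from the endosomal pathway to the cell surface, where CD4 T cells read them. The alpha and beta chains are assembled with the invariant chain, which fills the peptide groove and directs the complex to endosomes. There proteases, among them cathepsin S, trim the invariant chain to the fragment CLIP, and H2-DM exchanges CLIP for other peptides. Transcription of class II chains, H2-DM and the invariant chain is driven by the coactivator CIITA, which interferon-gamma induces in many cells outside the professional antigen-presenting lineages. Invariant chain at the cell surface also serves as a receptor for the cytokine macrophage migration inhibitory factor, the product of Mif, together with CD44 and chemokine receptors.

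The libraries held 17511450 to 17970104 reads assigned to genes. Lcn2, an IL-17 target encoding lipocalin-2, had 28833 and 28096 normalized counts in the rIL17 libraries and 8448 and 8498 in the PBS libraries. Of 8 epithelial marker genes all had a row, and their summed level was 43876 and 45851 normalized counts in the rIL17 libraries and 51536 and 55448 in the PBS libraries. Most of that sum came from the keratin genes Krt8 and Krt18. In the limma tests given further on, 0 of the 8 passed under the first filter and 0 of 7 under the stricter one. Epcam, which encodes an epithelial adhesion molecule, had 114 and 88.3 normalized counts in the rIL17 libraries and 135 and 76.6 in the PBS libraries. For Epcam, unlike Krt8 and Krt18, the groups overlapped. Of the 8 markers, 5 lay lower in both rIL17 libraries than in either PBS library and 0 lay higher. Over all 20677 genes the shares were 20.0% and 25.4%. PBS replicate 2 stood apart along transcript GC content. Over 729 genes of low GC content, below 40%, it lay 0.47 below PBS replicate 1 at the median on the log2 scale, and rIL17 replicate 2 lay 0.15 below rIL17 replicate 1. The median log2 difference between rIL17 and PBS over these 729 genes was 0.54. Over 1641 genes between 55% and 58% GC, where Cd74, H2-DMa and Ciita lie, PBS replicate 2 exceeded the other PBS library by 0.08. The rIL17 libraries differed there from PBS by -0.06 at the median.

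Cd74 (ENSMUSG00000024610, mm10 chromosome 18, 60803848 to 60812652, plus strand) encodes the invariant chain. It had 79.4 and 69.2 normalized counts in the rIL17 libraries, and 167 and 160 in the PBS libraries. Every rIL17 value was below every PBS value, and the libraries of a group lay close together, with the higher 1.15 times the lower in rIL17 and 1.04 times in PBS. The means were 74.3 ± 7.22 in rIL17 and 163 ± 4.73 in PBS (SD, n = 2 per group). The rIL17 mean was 45.5% of the PBS mean. Taking 1 library of each group at a time, the ratio of rIL17 to PBS ran from 0.415 to 0.496.

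The log2 difference of Cd74 was -1.13 (SE 0.13). Among the 12515 genes that passed a stricter filter, described below, it was the 23rd lowest difference, and the rIL17 mean was at most 0.5 of the PBS mean in 38 genes, or 0.304%. Counting error alone put the 95% interval of the ratio at 0.372 to 0.553, from 148 reads in the rIL17 libraries and 331 in the PBS libraries (exact binomial interval). As Cd74 was chosen for its lower values in these libraries, the interval describes counting error only and is no test. The transcript has a GC content of 56.6%. With each library corrected for GC content the difference was -0.997, and without PBS replicate 2 it was -1.16. In bulk RNA, fewer cells with Cd74 RNA and less Cd74 RNA per cell cannot be told apart.

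The microRNA gene Mir5107 lies in the Cd74 locus on the same strand and shares 12 of the 1679 exonic bases of Cd74. Reads on those bases could belong to either gene.

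**Figure D1:**
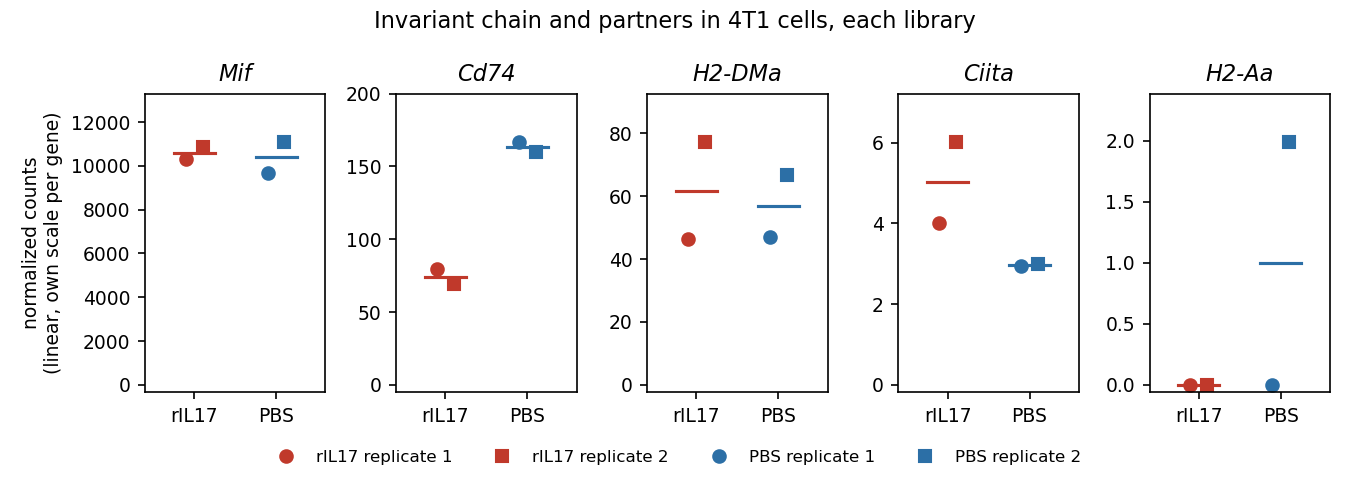
Normalized counts (linear vertical axis, with a scale of its own for each gene) of the 5 members with a row, in rIL17 libraries (red) and PBS libraries (blue). Circles are replicate 1, squares replicate 2 and bars the mean of 2 libraries; Cd74 lies at 69.2 to 79.4 in rIL17 and at 160 to 167 in PBS, while for Mif and H2-DMa the groups overlap.

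Leukocytes carry the most class II and invariant chain RNA in tissues, so their markers were read beside Cd74. Of 14 leukocyte marker genes, 7 had a row, and their summed level was 125 and 137 normalized counts in the rIL17 libraries and 123 and 124 in the PBS libraries. Most of this was Cd68, a lysosomal protein gene that is not restricted to leukocytes. It had 108 and 127 in rIL17 and 115 and 118 in PBS. Under the first filter, 0 of the 6 markers tested passed, beside 0 of all 20677 genes. Without Cd68, which was set apart after its values were seen, the sums were 17.1 and 10.0 in rIL17 and 7.85 and 5.97 in PBS.

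Ptprc, which encodes the pan-leukocyte protein CD45, had 3.02 and 2.01 normalized counts in the rIL17 libraries and 0 in both PBS libraries. Csf1r, the macrophage growth factor receptor gene, had 1.01 and 3.01 in rIL17 and 2.94 and 3.98 in PBS. Lyz2, the lysozyme gene of myeloid cells, had 11.1 and 2.01 in rIL17 and 2.94 and 0.994 in PBS. The B cell gene Cd79a had 0 and 2.01 in rIL17 and 0.981 and 0.994 in PBS. Apart from Lyz2 in rIL17 replicate 1, these 4 genes lay between 0 and 3.98 in every library. The part of leukocyte RNA in the Cd74 values was not tested. The other 7 markers, among them Itgam, Itgax, Adgre1, Ms4a1, Cd3e and Cd86, were not analysed here.

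Ciita (ENSMUSG00000022504, mm10 chromosome 16, 10480059 to 10528418, plus strand), the class II coactivator gene, was near 0. It had 4.02 and 6.02 normalized counts in the rIL17 libraries and 2.94 and 2.98 in the PBS libraries. Both rIL17 libraries lay above both PBS libraries, a difference of 10 reads in rIL17 against 6 in PBS. The 95% counting interval of the ratio, 0.558 to 5.67 around 1.69, includes both a lower and a higher level in rIL17. Of the 9535 exonic bases of Ciita, 329 are shared with Dexi on the other strand, which had 214 and 211 normalized counts in rIL17 and 240 and 223 in PBS. The strand setting of the counting is not given in the sources used here, so the few reads given to Ciita are uncertain.

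H2-Aa (ENSMUSG00000036594, mm10 chromosome 17, 34282744 to 34287823, minus strand) encodes the alpha chain of the class II molecule I-A. It was listed at 0 in both rIL17 libraries and at 0 and 1.99 in the PBS libraries. That is 0 reads in rIL17 and 2 in PBS, under the limit of 3 reads that a count of 0 allows, so no fold is given and no difference was detectable at this depth. The coactivator gene and the class II chain gene were thus near 0 with and without IL-17A, while Cd74 was not.

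Class II promoters are known for an X box, bound by the RFX complex, and a Y box, bound by NF-Y, at a fixed spacing; CIITA docks on the factors bound there. RefSeq promoter windows on GRCm38.p6 (250 bases before to 50 after a start) were given for 6 of the 9 members: H2-Aa, H2-DMb1, H2-Eb1, H2-DMa, Ctss and Mif. Ciita, Cd74 and H2-Ab1 had none. The letters TNGNAACT were searched as the X-box core and GATTGG as the Y box, on both strands, with the Y letters up to 50 bases after the X letters. The letters do not overlap each other, and they were chosen with these windows in view. The stretches below are shown because they hold the letters of the elements through which CIITA acts, and the capitals mark the X-box core and then the Y box.
H2-Aa, chr17:34287859-34287914, minus strand: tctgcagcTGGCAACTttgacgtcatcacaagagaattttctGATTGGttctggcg
H2-DMb1, chr17:34153087-34153142, plus strand: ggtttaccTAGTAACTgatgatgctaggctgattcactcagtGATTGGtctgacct
H2-Eb1, chr17:34305766-34305820, plus strand: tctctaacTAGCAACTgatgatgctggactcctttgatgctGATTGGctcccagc

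The X and Y letters were 26 bases apart in H2-Aa and H2-DMb1 and 25 apart in H2-Eb1. The Y letters began 49 to 62 bases before the annotated start. Of 32851 windows of the same length over all genes, 42 (0.128%) held the pair. The X letters were in 12.3% and the Y letters in 16.1%, windows with both included. In the windows of H2-DMa, Ctss and Mif the X letters and the pair were not found, and the Y letters alone were in 1 H2-DMa window; this says only which letters these windows hold. For H2-Aa, the member with both these letters and a row, the RNA level was the near-zero value above.

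H2-DMa (ENSMUSG00000037649, mm10 chromosome 17, 34119541 to 34139101, plus strand) encodes the alpha chain of the peptide editor H2-DM. It had 46.2 and 77.2 normalized counts in the rIL17 libraries and 47.1 and 66.6 in the PBS libraries. The groups overlapped, and the spread within each was wide: the higher library was 1.67 times the lower in rIL17 and 1.41 times in PBS. The means were 61.7 ± 21.9 in rIL17 and 56.9 ± 13.8 in PBS (SD, n = 2 per group), with a log2 difference of 0.09 (SE 0.35). The sign turned without rIL17 replicate 2 (-0.27) and without PBS replicate 1 (-0.15).

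The annotated H2-DMa locus reaches into Brd2, a bromodomain gene on the other strand, with which it shares 360 of 3448 exonic bases. Brd2 had 5576 and 5606 normalized counts in the rIL17 libraries and 5890 and 5933 in the PBS libraries. With the strand setting not given, the count of H2-DMa is uncertain.

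Mif (ENSMUSG00000033307, mm10 chromosome 10, 75859353 to 75860240, minus strand) encodes the ligand of invariant chain at the cell surface. It had 10340 and 10867 normalized counts in the rIL17 libraries and 9694 and 11093 in the PBS libraries. Both rIL17 libraries lay between the PBS libraries. The means were 10603 ± 372 in rIL17 and 10393 ± 989 in PBS (SD, n = 2 per group), and the log2 difference was 0.03 (SE 0.08). The difference was 0.15 with the GC correction, for a transcript with a GC content of 63.5%, and its sign turned with upper-quartile scaling (-0.02), without rIL17 replicate 2 (-0.004) and without PBS replicate 1 (-0.07). The genome also holds processed pseudogenes of Mif, and whether they share its reads was not tested.

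Per kb of exon, the order of the levels was Mif, Cd74, H2-DMa, then Ciita and H2-Aa, in both groups. Mif stood at 14233 ± 500 normalized counts per kb in rIL17 and 13951 ± 1328 in PBS, at percentile 99.8 of all genes in the table over the 4 libraries. Cd74 stood at 44.3 ± 4.30 per kb in rIL17 and 97.3 ± 2.82 in PBS, at percentile 61.7. H2-DMa stood at 17.9 ± 6.35 in rIL17 and 16.5 ± 4.01 in PBS, at percentile 46.1. Each of these steps was larger than the spread between replicates.

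Ciita stood at 0.526 ± 0.148 normalized counts per kb in rIL17 and 0.311 ± 0.003 in PBS. H2-Aa stood at 0 in rIL17 and 0.262 ± 0.370 in PBS. In PBS the difference between these neighbours was smaller than their spread. The ligand gene thus exceeded the receptor gene by 322 times per kb in rIL17 and by 143 times in PBS. Cd74 exceeded H2-DMa by 2.47 times per kb in rIL17 and by 5.90 times in PBS. Both ratios contain Cd74, so their change between the groups largely restates the difference that Cd74 was chosen for.

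**Figure D2:**
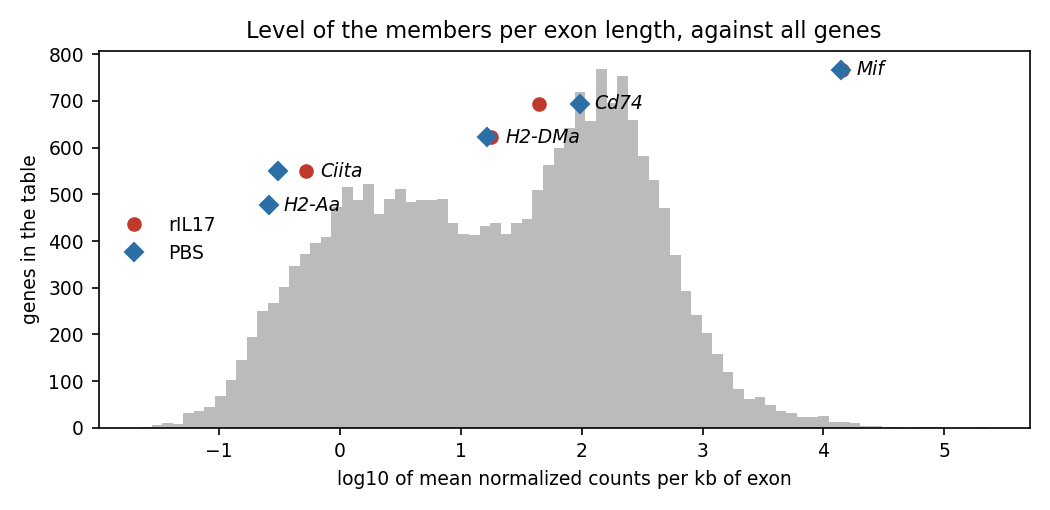
Histogram of the mean level of all genes in the table (horizontal axis: log10 of normalized counts per kb of exon; vertical axis: number of genes) with the group means of the members, rIL17 as red circles and PBS as blue diamonds, placed at arbitrary heights. Mif lies at the upper end, Cd74 and H2-DMa in the middle and Ciita and H2-Aa at the lower end; H2-Aa in rIL17 is at 0 and is not drawn.

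Filters of 2 kinds were used for tests across all genes, both with limma's moderated test on log2 values and Benjamini-Hochberg adjustment at an adjusted p below 0.05. The first kept genes whose mean reached 1 normalized count in rIL17 or in PBS: of 20677 genes, 0 passed (0%), while 2642 had an unadjusted p below 0.05 (12.8%). The stricter one asked for 10 or more normalized counts in both libraries of 1 group and for a mean CPM of 1 or more: of 12515 genes, 101 passed (0.807%), of which 23 were lower in rIL17 and 78 higher (0.184% and 0.623%). That number was 1 without either rIL17 library, 692 without PBS replicate 2 and 2773 without PBS replicate 1. Lcn2, at 3.36 times its PBS mean, did not pass under the first filter (limma adjusted p = 0.0848). It passed under the stricter one (limma adjusted p = 0.000332). A count of 0 under the first filter is therefore not read as a lack of change. Of the 5 members with a row, 4 were tested under the first filter and 0 passed. Under the stricter filter 3 were tested and 1, Cd74, passed as lower, against 0.184% of genes; 0 passed as higher, against 0.623%. Cd74 was chosen for this difference, so nothing is read from the count, and without either rIL17 library it did not pass. Of the 4 members tested under the first filter, Cd74 lay lower in both rIL17 libraries than in either PBS library and Ciita higher, against 20.0% and 25.4% of all 20677 genes.

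Beyond the members, 56 genes of the class II pathway and of invariant chain as a receptor were taken in 6 lists by function. Of these pathway genes, 48 had a row and were tested. SEs, medians and numbers passing per list below are from the fit with the first filter. As 0 of all 20677 genes passed there, 0 passing in a list says nothing particular about that list. Under the first filter limma called 0 of 48, with 9 at an unadjusted p below 0.05 (3 higher and 6 lower in rIL17). Of all 20677 genes, 12.8% were below 0.05, with 1578 higher and 1064 lower. Under the stricter filter limma called 0 of 43, against 0.807% of all 12515 genes. At an unadjusted p below 0.05 were 12 of the 43, against 16.6% of all genes. More pathway genes were called when a PBS library was left out, as was the case over all genes. The median log2 difference over the 48 genes was -0.01, beside 0.01 over all 20677 genes.

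Among genes from the interferon-gamma receptor to the Ciita promoter, 0 of 11 tested passed, with a median log2 difference of -0.12. Of the 11, 8 were lower and 3 higher in rIL17, beside 9757 lower and 10920 higher of all 20677 genes. Irf1, a transcription factor that activates the Ciita promoter, had 2012 and 2012 normalized counts in the rIL17 libraries and 2632 and 2842 in the PBS libraries, a log2 difference of -0.44 (SE 0.06, limma adjusted p = 0.369 under the first filter and 0.0542 under the stricter one). The groups did not overlap. Under the stricter filter Irf1 passed in limma with upper-quartile scaling (adjusted p = 0.035) and total-count scaling (0.0398), with the GC correction (0.0355) and without either PBS library, and it did not pass without either rIL17 library. Irf8, an interferon regulatory factor best known from myeloid cells and B cells, went the other way, with 528 and 564 normalized counts in rIL17 and 394 and 375 in PBS (log2 difference 0.50, SE 0.07, limma adjusted p = 0.37 under the first filter and 0.0872 under the stricter one). Irf8 passed in limma under the stricter filter with the GC correction (adjusted p = 0.0251), without PBS replicate 1 (0.00115) and without PBS replicate 2 (0.0192), and it did not pass without either rIL17 library.

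Of the interferon-gamma receptor chains, Ifngr1 had 623 and 630 normalized counts in rIL17 and 687 and 678 in PBS. Ifngr2 had 928 and 833 in rIL17 and 1016 and 1135 in PBS. For both chains the rIL17 libraries lay below the PBS libraries, with log2 differences of -0.12 (SE 0.05) and -0.29 (SE 0.09), and neither passed.

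Of the factors that assemble on class II promoters, 0 of 10 tested passed, with a median log2 difference of 0.05. The RFX subunit genes, needed for class II transcription, were all expressed. Rfx5 had 340 and 312 normalized counts in rIL17 and 357 and 353 in PBS (log2 difference -0.12, SE 0.08). Rfxank had 164 and 180 in rIL17 and 131 and 154 in PBS (0.27, SE 0.13). Rfxap had 389 and 416 in rIL17 and 388 and 401 in PBS (0.03, SE 0.07). Their level, at 131 or more in every library, contrasts with that of Ciita at 2.94 to 6.02.

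The NF-Y subunit genes Nfyb and Nfyc, whose products bind Y boxes, had log2 differences of 0.24 (SE 0.09) and -0.20 (SE 0.06). Creb1, encoding a factor of the X2 box next to the X box, had 1829 and 1521 normalized counts in rIL17 and 1384 and 917 in PBS (0.57, SE 0.25). Its spread between the PBS libraries was wide, and without PBS replicate 1 the difference was 0.86. The transcript of Creb1 has a GC content of 39.6%, and its difference lay close to the median of 0.54 over all genes below 40% GC. None of the 3 passed.

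Among endosomal proteases, their inhibitors and the thiol reductase gene, 0 of 14 tested passed, with a median log2 difference of -0.02. Ctsh, encoding cathepsin H, had 1590 and 1662 normalized counts in rIL17 and 1818 and 1996 in PBS (log2 difference -0.23, SE 0.07). Cst3, encoding the cathepsin inhibitor cystatin C, had 4028 and 4590 in rIL17 and 4774 and 5652 in PBS (-0.27, SE 0.12). In both, the rIL17 libraries lay below the PBS libraries. Sppl2a encodes the intramembrane protease that removes the last membrane stub of invariant chain. It had 1896 and 1593 normalized counts in rIL17 and 1446 and 1108 in PBS (0.46, SE 0.18). With a GC content of 39.7%, its difference was below the median of 0.54 over all genes below 40% GC.

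Among the receptors and mediators that work with invariant chain at the cell surface, 0 of 6 tested passed, with a median log2 difference of 0.16. Cd44, the signalling partner of invariant chain for the Mif product, had 7361 and 7170 normalized counts in rIL17 and 6736 and 6009 in PBS (0.19, SE 0.07). Ackr3, an atypical chemokine receptor gene, had 1228 and 1319 in rIL17 and 1036 and 1002 in PBS (0.32, SE 0.06, limma adjusted p = 0.37 under the first filter and 0.134 under the stricter one). Ackr3 passed in limma under the stricter filter with the GC correction (adjusted p = 0.0381) and without PBS replicate 1 (0.00463). For Cd44 and Ackr3 both rIL17 libraries lay above both PBS libraries, the opposite order to Cd74. Of all 20677 genes, 25.4% lay above in the same way.

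Cxcr4, a chemokine receptor gene of the same complex, was low and scattered, with 8.04 and 2.01 normalized counts in rIL17 and 19.6 and 6.96 in PBS. Ddt, which encodes the homologue of the Mif product, had 87.5 and 107 in rIL17 and 83.4 and 93.5 in PBS. In both genes the groups overlapped. Src, a kinase gene downstream of the receptor, had 3246 and 3357 in rIL17 and 3609 and 3818 in PBS (-0.17, SE 0.05), with the rIL17 libraries below the PBS libraries.

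Of the genes for ubiquitin ligases and endosomal sorting, 0 of 6 tested passed, with a median log2 difference of -0.03. March8, a membrane-bound ubiquitin ligase gene, had a log2 difference of -0.07 (SE 0.05), the tetraspanin gene Cd82 of -0.15 (SE 0.07) and the clathrin adaptor gene Ap1m1 of -0.06 (SE 0.08). Of the other class II chain genes, only H2-Oa of 5 had a row. It encodes a chain of the H2-DM inhibitor H2-O and had 0 and 4.01 normalized counts in rIL17 and 0.981 and 0 in PBS.

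**Figure D3:**
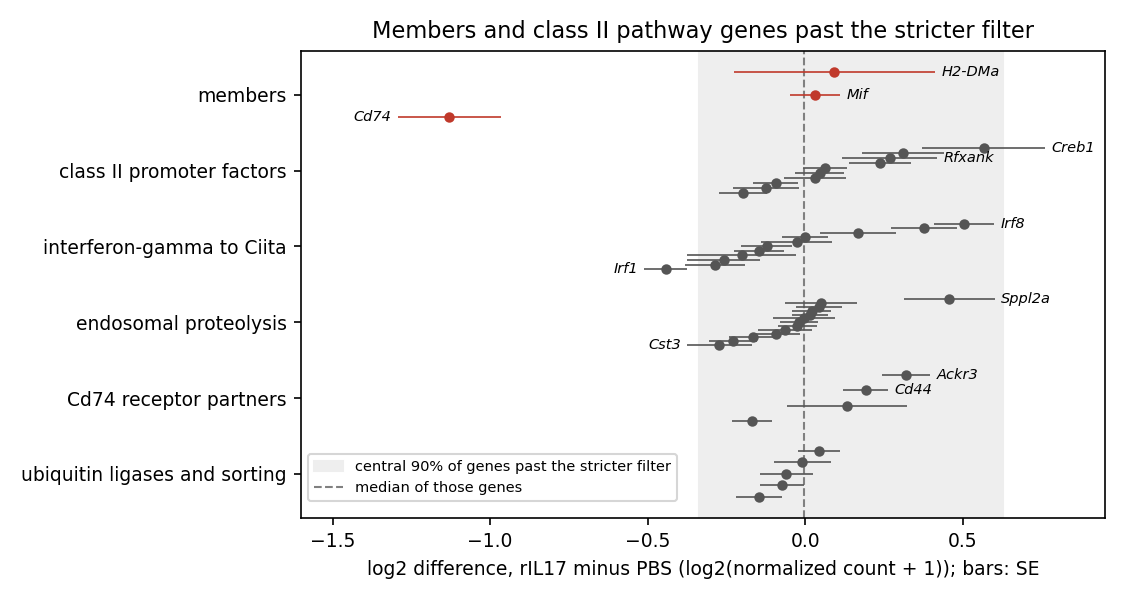
Log2 differences, rIL17 minus PBS, of the members (red) and of pathway genes by list (grey) that passed the stricter filter, with bars for the SE from limma; the shaded band holds the central 90% of the 12515 genes and the dashed line marks their median. Cd74 at -1.13 lies outside the band of -0.34 to 0.63, Mif and H2-DMa lie near 0, and Irf1 at -0.44 is the only pathway gene below the band.

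The 5 genes whose profile over the 4 libraries was nearest to that of Cd74, by Euclidean distance between log2 values centred on each gene's mean, were Gm26542, Gm27219, Dok7, Icam1 and Rgcc, out of 12514 genes compared. The distances were 0.07, 0.08, 0.09, 0.09 and 0.18. With 2 libraries per group such a profile is mostly the group difference itself, so the likeness says that these genes differed by about as much. Icam1, an adhesion molecule gene, had 301 and 265 normalized counts in rIL17 and 626 and 651 in PBS. Rgcc, a cell cycle regulator gene, had 23.1 and 17.0 in rIL17 and 43.2 and 44.7 in PBS.

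Dok7, known as an adaptor gene of the neuromuscular junction, had 11.1 and 10.0 normalized counts in rIL17 and 26.5 and 23.9 in PBS. The gene models Gm26542 and Gm27219 had 12.1 and 19.1 on average in rIL17 and 26.7 and 42.0 in PBS. In all 5 the rIL17 libraries lay below the PBS libraries, which follows from their choice by nearness to Cd74.

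**Figure D4:**
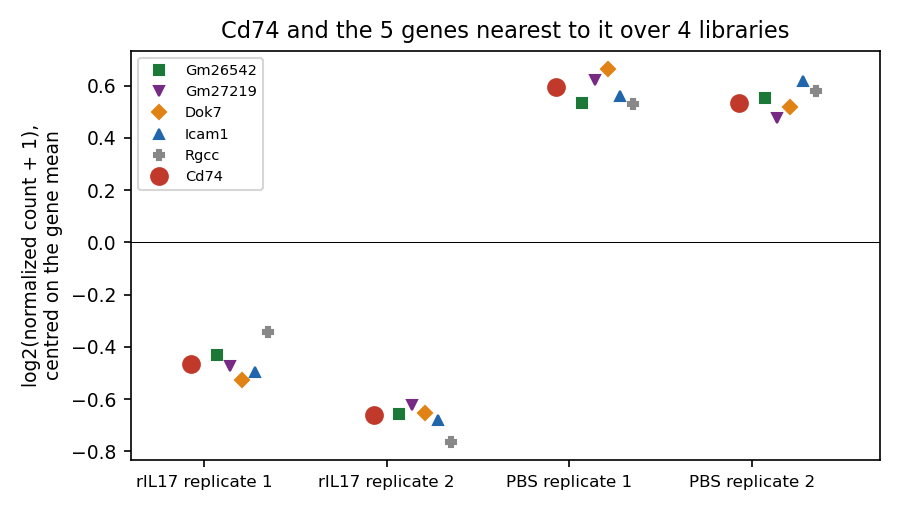
Centred log2(normalized count + 1) of Cd74 (large red circles) and its 5 nearest genes in each library; vertical axis in log2 units around each gene's mean, horizontal axis the 4 libraries, with symbols shifted sideways to be seen. Cd74 and its neighbours lie below 0 in both rIL17 libraries and above 0 in both PBS libraries. For the neighbours this follows from their choice by nearness to Cd74.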

How the data were processed

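RNA sequencing of 4T1 cells gave 4 libraries, 2 treated with recombinant IL-17A and 2 with phosphate-buffered saline. The deposited values are a normalized signal, which the authors made from reads per gene; CASAVA, HISAT2 2.0.5, featureCounts 1.5.0-p3 and mm10 are named per the submitters' processing notes, and libraries were strand-specific per the labels' protocols. The sources used here do not give the annotation release, strand setting or scaling tool. Symbols matched 21819 of 21840 identifiers; coordinates and exon lengths are those of GENCODE on mm10. Tests used limma 3.58.1 with a mean-variance trend (R 4.3.3) on log2(value + 1), with treatment as the only term, fitted over all genes; the fits were also tested on simulated data. The deposited signal is scaled by library, and no count test was run on it or on the reads that its steps give; those reads were used only for counting intervals, which cover counting error only.

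The named genes are all members, the 3 genes of each list with the smallest p, Ifngr1, Rfx5, Rfxank, Rfxap, Cxcr4 and Ddt among genes named whatever their values, the 5 profiles nearest to Cd74, and Lcn2. A gene that the rule also names is not reported here. Dexi, Brd2, Mir5107, Epcam, Cd79a and Cd68 are named outside that rule, after their values were seen. The members and lists were chosen with earlier results of these data known. Alternatives were other scalings, filters and pseudocount, a replicate block, a GC correction (loess per library, GC of the longest transcript), and each library left out.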

Additional observations from a re-analysis of the deposited data

How the results depend on the processing

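The log2 difference of Cd74, the gene chosen for it, kept its sign under all 12 alternatives run, from -1.23 to -0.997. The filters and the replicate block cannot change a gene's difference, so they do not test its sign. With the GC correction the difference of Cd74 was -0.997, with or without the replicate block. With each library left out it ran from -1.23 to -1.03. Ciita kept its sign under 11 alternatives (0.34 to 0.82), H2-DMa changed sign under 2 of 12 and Mif under 3 of 12. These numbers of alternatives include the settings that cannot change a difference. Against 0 genes called under the first filter, upper-quartile scaling called 1, total-count scaling 24, the GC correction 75, the GC correction with the replicate block 397 and the stricter filter 101; each library left out, the replicate block alone, no filter and a pseudocount of 0.1 called 0. Under the stricter filter, in place of 101, upper-quartile scaling called 168, total-count scaling 154, the GC correction 348, the replicate block 1032 and both together 584; with each library left out it ran from 1 (without either rIL17 library) through 692 (without PBS replicate 2) to 2773 (without PBS replicate 1). With 1 library in a group, the spread comes from the other group alone.

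Of the pathway genes, 0 were called under the first filter except 2 (Irf8 and Jak2) with the GC correction and replicate block. Under the stricter filter, in place of 0, either scaling called 1 (Irf1), the GC correction 3 (Irf1, Irf8 and Ackr3), the replicate block 7 (Ackr3, Creb1, Cst3, Irf1, Irf8, Jak2 and Sppl2a) and both together 4 (Ackr3, Irf1, Irf8 and Jak2), and each library left out gave 0 to 15, with 2 without PBS replicate 2 and 15 without PBS replicate 1. Without either rIL17 library, Cd74 was not called under the stricter filter. The cause of these changes was not tested. The replicate numbers pair libraries by number only: same-numbered deviations from the group means correlated at 0.16 over genes, with 2 pairs. The planned count tests were not run. Depth limits Ciita and H2-Aa, at 0 to 6 reads per library.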
